A study of Mus musculus with 62 samples.

Results

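Transcripts of 8 temperature-responsive genes were followed in the neocortex of mice that carried melanoma cells. The rows were taken by gene symbol from the deposited expression table, and each of the 8 symbols was found once among 47643 rows. The cold-inducible genes were Cirbp and Rbm3. The heat shock genes were Hspa1a, Hspa1b, Hspa8, Hsph1, Hsp90aa1 and Dnajb1. All 8 passed the filter on low values (a mean of at least 1 TPM over the libraries), which 14494 genes passed.

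Cirbp and Rbm3 encode small RNA-binding proteins with a glycine-rich tail, and their transcripts accumulate when cells or animals are mildly cooled. Heat shock genes encode chaperones, proteins that hold, fold or disaggregate other proteins. Heat shock factors, which bind short inverted repeats called heat shock elements, switch on the inducible members of this class when proteins unfold. In the brain both groups also follow the daily rhythm of body temperature.

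Female mice received cells of a melanoma that causes cachexia (CAC), cells of a melanoma that does not (NCAC), or a mock injection (Con, called mock here). Cachexia is the loss of muscle and adipose tissue seen in patients and animals with certain tumours. The labels give an age of 2 months in every group, and neocortex was taken 2, 4, 6 or 8 weeks after injection. This gave 12 groups of 5 libraries each, except CAC at 8 weeks with 7, and 62 libraries in all. The design text calls the hosts NCI Ath/nude mice, whereas the sample labels give C57BL6/J, so the strain, and with it the immune cells the hosts still had, is not settled here. The labels do not name the melanoma lines, and body temperature and body weight were not analysed here.

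Levels are in TPM, a unit scaled to the library total and to transcript length, which allows levels of different genes to be compared. Depth, estimated from the steps between low values, was 45000000 to 50800000 reads per library. The lowest value of any of the 8 genes corresponded to about 151 reads. The median library held about 309 reads of Hspa1a and 65626 reads of Hspa8, so counting error weighs most on the inducible HSP70 genes. The 8 markers of neocortical excitatory neurons were detected in every group, with a summed level of 672 to 1557 TPM over the libraries. The libraries that stood farthest apart in markers of other tissue were 3. In mock at 2 weeks replicate 5 the summed hypothalamus and pituitary markers reached 3761 TPM against a median library of 22.3 TPM, in CAC at 4 weeks replicate 1 the striatum markers were at 144 TPM against 940 TPM, and in CAC at 8 weeks replicate 3 the erythroid markers were at 22527 TPM against 1449 TPM. Some differences of the 8 genes are given with and without these libraries. Relations over all libraries and the results of the gene lists are not given without these 3. All libraries of week 2, all 5 of CAC at 4 weeks and 4 of the 5 of NCAC at 4 weeks came from lane 3, and all others from lane 4, so week 2 was not tested against later weeks of the same arm.

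Promoters of a cold-inducible gene and of 3 heat shock genes are shown first. Heat shock elements and the mild-cold response element are promoter sequences reported to take part in responses to temperature, and they need not be the only route. RefSeq promoter windows (build GRCm38.p6) were found for 5 of the 8 genes, and Rbm3, Hspa8 and Hsp90aa1 have no window here. The bases upstream of each start were searched on both strands for the mild-cold response element TCCCCGCC and for TTCNNGAA and GAANNTTC, the inverted repeats of the heat shock element. The searched windows were 250 bases long. Matches are in capitals, and the last position printed is given from the RefSeq start.

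Cirbp lies at chr10:80165985-80172786 on the plus strand, and the window at chr10:80167589-80167797 lies within the GENCODE gene, whose annotated start is farther upstream. It holds TCCCCGCC from base -247 and ends at base -42. A second RefSeq window of Cirbp, at chr10:80167921-80168170, held none of the 3 motifs.

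Cirbp: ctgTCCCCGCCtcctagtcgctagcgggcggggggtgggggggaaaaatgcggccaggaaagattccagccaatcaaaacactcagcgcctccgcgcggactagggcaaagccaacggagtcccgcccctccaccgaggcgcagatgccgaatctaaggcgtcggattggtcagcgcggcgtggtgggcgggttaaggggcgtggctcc

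Hspa1a and Hspa1b are neighbouring copies without introns, at chr17:34969190-34972156 and chr17:34956436-34959238, both on the minus strand. Their windows, chr17:34972157-34972406 and chr17:34959239-34959488, lie just outside the annotated genes and reach to base -1. They were 98.8% identical and differed at 3 of 250 positions, written here as the Hspa1a base, the position from the 5′ end of the window and the Hspa1b base: C44T, T47C and T249G. Both held GAANNTTC from base -104 and, on the reverse strand, the cold element from base -137.

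Hspa1a: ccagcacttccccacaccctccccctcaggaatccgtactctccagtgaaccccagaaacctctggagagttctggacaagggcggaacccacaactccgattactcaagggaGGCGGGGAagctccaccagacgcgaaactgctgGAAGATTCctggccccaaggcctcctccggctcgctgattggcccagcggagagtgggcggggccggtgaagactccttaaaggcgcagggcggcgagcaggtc

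Hspa1b: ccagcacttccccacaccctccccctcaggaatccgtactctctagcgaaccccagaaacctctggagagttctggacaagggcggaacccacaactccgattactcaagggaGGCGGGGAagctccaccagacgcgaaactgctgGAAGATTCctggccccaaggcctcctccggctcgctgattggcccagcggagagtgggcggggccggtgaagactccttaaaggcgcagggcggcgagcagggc

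Hsph1 lies at chr5:149614287-149636376 on the minus strand. Its window at chr5:149636357-149636586, which ends at base -21 from the start used, holds TTCNNGAA from base -33.

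Hsph1: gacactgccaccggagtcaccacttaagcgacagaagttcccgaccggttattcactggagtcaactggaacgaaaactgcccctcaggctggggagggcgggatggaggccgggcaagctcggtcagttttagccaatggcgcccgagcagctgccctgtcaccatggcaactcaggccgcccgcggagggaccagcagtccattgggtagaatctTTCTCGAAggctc

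Among 32851 RefSeq windows of the same length, 12.8% held at least 1 of the inverted repeats and 4.64% held the cold element. A match describes letters and shows neither binding nor use of the site. The 2 Dnajb1 windows held none of the 3 motifs in these 250 bases.

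The levels of the 8 genes spanned more than 2 orders of magnitude. Hspa8, the constitutive cytosolic HSP70 chaperone that also uncoats clathrin vesicles at synapses, averaged 1080 TPM over the 62 libraries. Hsp90aa1, the inducible form of cytosolic HSP90, averaged 849.7 TPM. Hsph1, an HSP110 nucleotide exchange factor for HSP70, averaged 99.5 TPM, Cirbp 85.6 TPM, Rbm3 78.7 TPM and Dnajb1, an HSP40 that delivers substrates to HSP70, 68.1 TPM. The inducible HSP70 copies were the lowest, with 7.29 TPM for Hspa1a and 8.91 TPM for Hspa1b. Relative spread ran the other way for the HSP70 copies: the highest library was 4.19 times the lowest for Hspa1b and 3.47 times for Hspa1a, but 1.81 times for Hspa8 and 1.42 times for Hsp90aa1. Rbm3 spanned 3.33 times and Cirbp 2.56 times.

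Group means of both cold-inducible transcripts were highest in the cachectic arm at 4, 6 and 8 weeks. At 2 weeks CAC also had the highest mean of the arms for Cirbp (82.4 TPM) and Rbm3 (73.7 TPM), without a call. No change of the CAC difference from mock between 2 and 8 weeks passed for either gene. At 8 weeks Rbm3 rose in CAC to 1.52-fold of mock and 1.51-fold of NCAC, and at 6 weeks to 1.64-fold of NCAC. Cirbp rose in CAC at 6 weeks against NCAC (1.44-fold), a call that most alternatives ended, and was 1.38-fold of mock at 8 weeks without passing the test. Neither gene passed in NCAC against mock in any week. No heat shock gene passed in any comparison of CAC with mock or with NCAC. In bulk tissue, fewer cells of a type and less RNA per cell cannot be told apart.

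**Figure D1:**
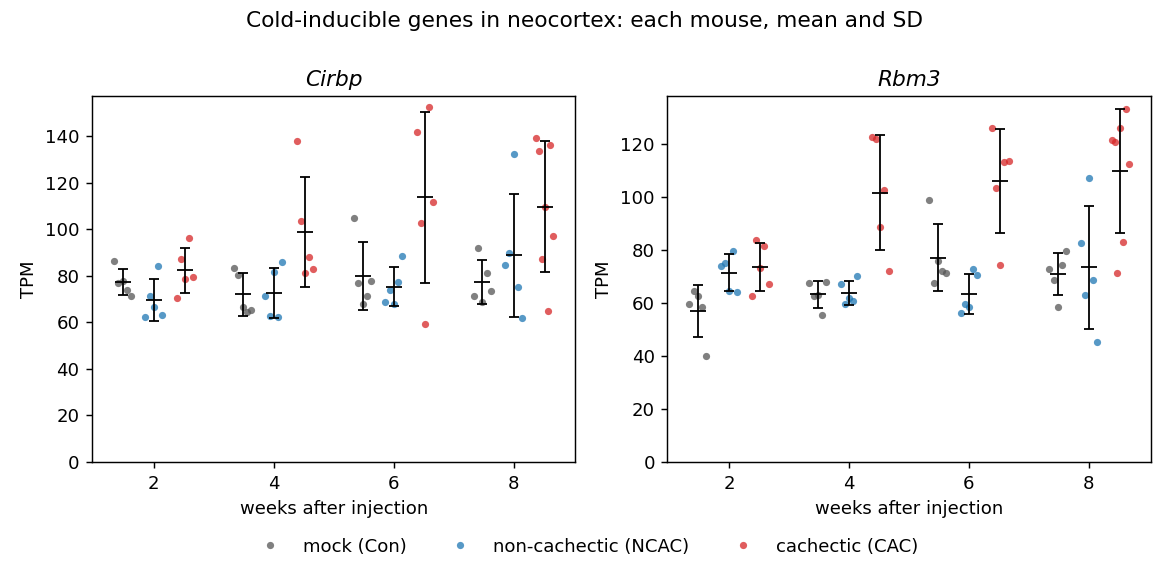
TPM of Cirbp and Rbm3 on linear axes by weeks after injection, 1 point per mouse, with the mean (horizontal tick) and SD (bars) of each group of 5 mice (7 for CAC at 8 weeks). The CAC means at 4, 6 and 8 weeks are 98.7, 114 and 110 TPM for Cirbp and 102, 106 and 110 TPM for Rbm3, above every mock and NCAC mean, while single CAC mice at 6 and 8 weeks lie as low as mock.

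At 8 weeks the mock libraries held 72.9, 68.8, 58.6, 74.4 and 79.7 TPM of Rbm3, which also supports synapse maintenance in cooled mice. The NCAC libraries held 82.9, 63.1, 107, 68.8 and 45.4 TPM, and the 7 CAC libraries ran from 71.3 through a median of 121 to 133 TPM. Of the 7 CAC mice 6 lay above every mock mouse, and replicate 3, with the erythroid markers, lay within the mock range. The log2(TPM + 1) difference between CAC and mock was 0.60 ± 0.145 (SE, n = 7 and 5, adjusted p = 0.00491 from limma), and between CAC and NCAC 0.60 ± 0.145 (adjusted p = 0.00684). Without the 3 libraries that stood apart the differences were 0.70 (adjusted p = 0.000216) and 0.70 (adjusted p = 0.000262). Against mock the call held in every alternative, with adjusted p from 0.000216 to 0.0354. Against NCAC it was lost when only those groups were fitted (adjusted p = 0.119) and without NCAC replicate 5, the lowest library (0.44, adjusted p = 0.0794). Of all genes 287 and 407 passed in these fits, beside 873 in the full data.

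Cirbp at 8 weeks was at 71.5, 91.8, 68.7, 81.4 and 73.4 TPM in mock, and at 84.7, 89.7, 132, 75.4 and 62.1 TPM in NCAC. In CAC the lowest library held 64.9, the median 110 and the highest 139 TPM. The spread among the CAC mice (SD 28.3 TPM) was larger than among mock mice (SD 9.32 TPM), and replicate 5 lay below every mock mouse while 5 of 7 lay above. The difference from mock was 0.46 ± 0.163 (adjusted p = 0.064), and from NCAC 0.30 ± 0.163 (adjusted p = 0.278). Cirbp passed against mock without the 3 libraries that stood apart (0.51, adjusted p = 0.0284), without CAC replicate 3 (0.51, adjusted p = 0.0364) and without CAC replicate 5 (0.58, adjusted p = 0.0125). Of all genes 2020, 1762 and 1523 passed in these fits, beside 1247 in the full data. Of the 8 genes, 1 was called in CAC against mock at 8 weeks, where 8.6% of all 14494 genes were, and 1 in CAC against NCAC, where 6.02% were. Markers of other cells differed between CAC and both other arms at 8 weeks, and their part in these results was not tested. Against mock, 4 of 7 microglia markers were lower, with sums of 360 to 495 TPM in CAC and 484 to 863 TPM in mock, and of 7 oligodendrocyte markers 2 were lower, with sums of 1511 to 2258 TPM and 1915 to 2326 TPM. Choroid plexus markers summed to 63.7 to 2509 TPM in CAC (median 163 TPM) and 577 to 2396 TPM in mock (median 1017 TPM), and none of 7 passed. Of 7 astrocyte markers 1 was higher and 2 were lower. In CAC against NCAC at 8 weeks 3 of 7 oligodendrocyte and 2 of 7 microglia markers were lower, and of 7 endothelial markers 2 were higher and 1 lower. The NCAC sums were 2055 to 2569 TPM for oligodendrocytes, 440 to 501 TPM for microglia and 187 to 226 TPM for endothelial cells, which were at 220 to 343 TPM in CAC, and the median choroid plexus sum in NCAC was 1161 TPM. In NCAC against mock at 8 weeks no member was called by limma, 0 had an unadjusted p under 0.05, and 0% of all genes were called.

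At 6 weeks Rbm3 was at 99.0, 67.5, 75.8, 72.2 and 71.4 TPM in mock, at 56.2, 59.5, 58.6, 72.9 and 70.4 TPM in NCAC, and at 126, 104, 74.2, 113 and 114 TPM in CAC. The CAC and NCAC groups did not overlap, and the difference was 0.72 ± 0.156 (adjusted p = 0.00389), a call kept in each alternative. Cirbp was at 105, 77, 68.1, 71.1 and 77.8 TPM in mock, at 68.6, 73.9, 68.0, 77.4 and 88.5 TPM in NCAC, and at 142, 103, 59.5, 153 and 112 TPM in CAC. In CAC 4 of 5 mice were above every NCAC mouse, and replicate 3 was below them all. The difference from NCAC was 0.52 ± 0.176 (adjusted p = 0.0475), and the call was lost with TMM scaling (0.44, adjusted p = 0.14), with no filter on level (adjusted p = 0.0788) and with 8 of the 10 libraries left out in turn. These were 2 calls among 8 genes, beside 9.65% of all genes. Groups did not overlap for Rbm3 and for Dnajb1, beside 6.74% of all genes. Of 7 oligodendrocyte markers 5 were lower in CAC, with sums of 1886 to 2102 TPM against 2141 to 2776 TPM in NCAC, and choroid plexus sums had medians of 183 TPM and 1614 TPM. Their part in these results was not tested.

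Against mock at 6 weeks no member passed, beside 1.63% of all genes, although Cirbp (0.45 ± 0.176, adjusted p = 0.194), Rbm3 (0.45 ± 0.156, adjusted p = 0.131) and Hsph1 (-0.28 ± 0.112, adjusted p = 0.2) had an unadjusted p under 0.05. A single CAC mouse bore on this. Replicate 3 had Cirbp and Rbm3 within or below the mock range, and without it all 3 genes passed, Cirbp at 0.67 (adjusted p = 0.0169), Rbm3 at 0.57 (adjusted p = 0.0367) and Hsph1 at -0.42 (adjusted p = 0.0173). Of all genes 407 passed without that mouse, beside 236 in the full data. Mock replicate 1, with 105 TPM of Cirbp and 99.0 TPM of Rbm3, was the highest of its group for both genes, and without it neither passed (adjusted p = 0.105 and 0.0737). In NCAC against mock at 6 weeks 0 members had an unadjusted p under 0.05, and 0% of all genes were called.

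At 4 weeks Rbm3 was at 67.7, 62.6, 62.9, 55.5 and 68.0 TPM in mock, at 67.0, 59.5, 61.7, 60.9 and 70.2 TPM in NCAC, and at 123, 122, 88.9, 103 and 72.3 TPM in CAC. Every CAC mouse was above every mock and NCAC mouse, a separation found for 0.869% of all genes against mock and 1.2% against NCAC. The differences were as large as later, 0.65 ± 0.156 against mock (adjusted p = 0.116) and 0.64 ± 0.156 against NCAC (adjusted p = 0.0887), but did not pass, in a week when 0.0414% and 0.0069% of all genes did. Rbm3 passed against mock without CAC replicate 5 (0.77, adjusted p = 0.0124), and against NCAC without CAC replicate 3 (0.68, adjusted p = 0.0344) or 5 (0.75, adjusted p = 0.00646). Calls over all genes moved in the same fits. Against mock they rose from 6 to 760, and against NCAC from 1 to 279 without replicate 3 and to 1566 without replicate 5. Cirbp was at 83.5, 80.6, 66.4, 64.4 and 65.2 TPM in mock, at 71.1, 62.7, 81.7, 62.2 and 85.8 TPM in NCAC, and at 138, 103, 81.2, 88.1 and 83.0 TPM in CAC. Its difference from mock was 0.43 ± 0.176 (adjusted p = 0.295). Without CAC replicate 1, the library with low striatum markers, Cirbp differed from mock by 0.30 (adjusted p = 0.872) and Rbm3 by 0.58 (adjusted p = 0.834), and Rbm3 from NCAC by 0.56 (adjusted p = 0.684). Of all genes 1 passed against mock and 0 against NCAC without that library. The CAC libraries were sequenced on lane 3 and those of mock on lane 4, so lane and arm cannot be told apart. Only NCAC at 4 weeks held both lanes, so a lane term rests on its 1 library from lane 4 and cannot separate lane from arm between CAC and mock. With the lane term the Rbm3 difference from mock was 0.82 and from NCAC 0.67, and the Cirbp difference from mock was 0.74. All 5 CAC and 4 of the 5 NCAC libraries shared lane 3, where Rbm3 was at 59.5 to 67.0 TPM in NCAC and 72.3 to 123 TPM in CAC. In NCAC against mock at 4 weeks 0 members had an unadjusted p under 0.05, and 0% of all genes were called.

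At 2 weeks the 3 arms were closer. Rbm3 was at 59.5, 64.6, 62.6, 58.4 and 40.1 TPM in mock, at 73.9, 75.1, 64.4, 79.8 and 64.0 TPM in NCAC, and at 62.7, 84.0, 73.3, 81.6 and 67.1 TPM in CAC. The lowest mock value belongs to replicate 5, the library with hypothalamus and pituitary markers. Rbm3 differed from mock by 0.37 ± 0.156 in CAC (adjusted p = 0.147) and by 0.33 ± 0.156 in NCAC (adjusted p = 0.156), and by 0.26 and 0.21 without the libraries that stood apart. Cirbp ranged from 71.4 to 86.4 TPM in mock, from 62.2 to 84.3 TPM in NCAC and from 70.5 to 96.1 TPM in CAC, and the arms overlapped. Limma called no member in CAC against mock, beside 4.28% of all genes, and 1 member had an unadjusted p under 0.05.

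Ordered by mean, Cirbp ran from NCAC at 2 weeks (69.4 TPM) to CAC at 6 weeks (114 TPM), and the 3 highest groups were CAC at 4, 8 and 6 weeks. No step between neighbouring groups exceeded the pooled SD between mice (0.29 on the log2 scale), and the largest, 0.17, lay below CAC at 4 weeks. For Rbm3 the order ran from mock at 2 weeks (57.1 TPM) to CAC at 8 weeks (110 TPM), with the same 3 groups at the top. Here the step from mock at 6 weeks (77.2 TPM) to CAC at 4 weeks (102 TPM) was 0.38, above the pooled SD of 0.26, and each other step was smaller than that SD. Hsph1 had the reverse arrangement, with the 3 lowest means in CAC at 6, 8 and 4 weeks (88.0, 90.8 and 92.0 TPM) and no step above its pooled SD of 0.18.

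Hsph1 was lower in CAC than in mock from 4 weeks on without passing the test. At 8 weeks it was at 107, 112, 119, 102 and 92.9 TPM in mock, at 106, 112, 80.1, 105 and 106 TPM in NCAC, and at 76.5 to 115 TPM in CAC, with a median of 92.2 TPM. Of the 7 CAC mice 4 lay below every mock mouse. At 6 weeks the values were 96.2, 98.4, 118, 109 and 105 TPM in mock, 111, 101, 111, 87.9 and 85.0 TPM in NCAC, and 80.8, 76.9, 126, 68.7 and 87.9 TPM in CAC. In CAC 4 of 5 mice lay below every mock mouse, and replicate 3 lay above them all. The differences between CAC and mock were -0.24 ± 0.104 at 8 weeks (adjusted p = 0.149), -0.28 ± 0.112 at 6 weeks and -0.23 ± 0.112 at 4 weeks (adjusted p = 0.357), and those between CAC and NCAC were -0.17 ± 0.104, -0.19 ± 0.112 and -0.22 ± 0.112 in the same order. Against NCAC it passed at 6 weeks without CAC replicate 3 (-0.33, adjusted p = 0.0408), where 1233 of all genes passed, beside 1399 in the full data.

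The Dnajb1 differences had the opposite sign to those of Hsph1 at 6 and 8 weeks. At 8 weeks Dnajb1 was at 66.7, 59.3, 74.0, 69.4 and 66.2 TPM in mock, at 67.7, 59.4, 67.3, 67.4 and 66.6 TPM in NCAC, and at 64.4 to 82.9 TPM in CAC, with a median of 76.4 TPM. The difference was 0.19 ± 0.0866 from mock (adjusted p = 0.178) and 0.22 ± 0.0866 from NCAC (adjusted p = 0.125), and the latter passed without the 3 libraries that stood apart (0.26, adjusted p = 0.0299) and without CAC replicate 3 alone (0.26, adjusted p = 0.0455). Of all genes 1975 and 1639 passed against NCAC in these 2 fits, beside 873 in the full data. At 6 weeks the lowest CAC mouse (69.6 TPM) was just above the highest NCAC mouse (69.3 TPM), with a difference of 0.23 ± 0.0935 (adjusted p = 0.101).

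**Figure D2:**
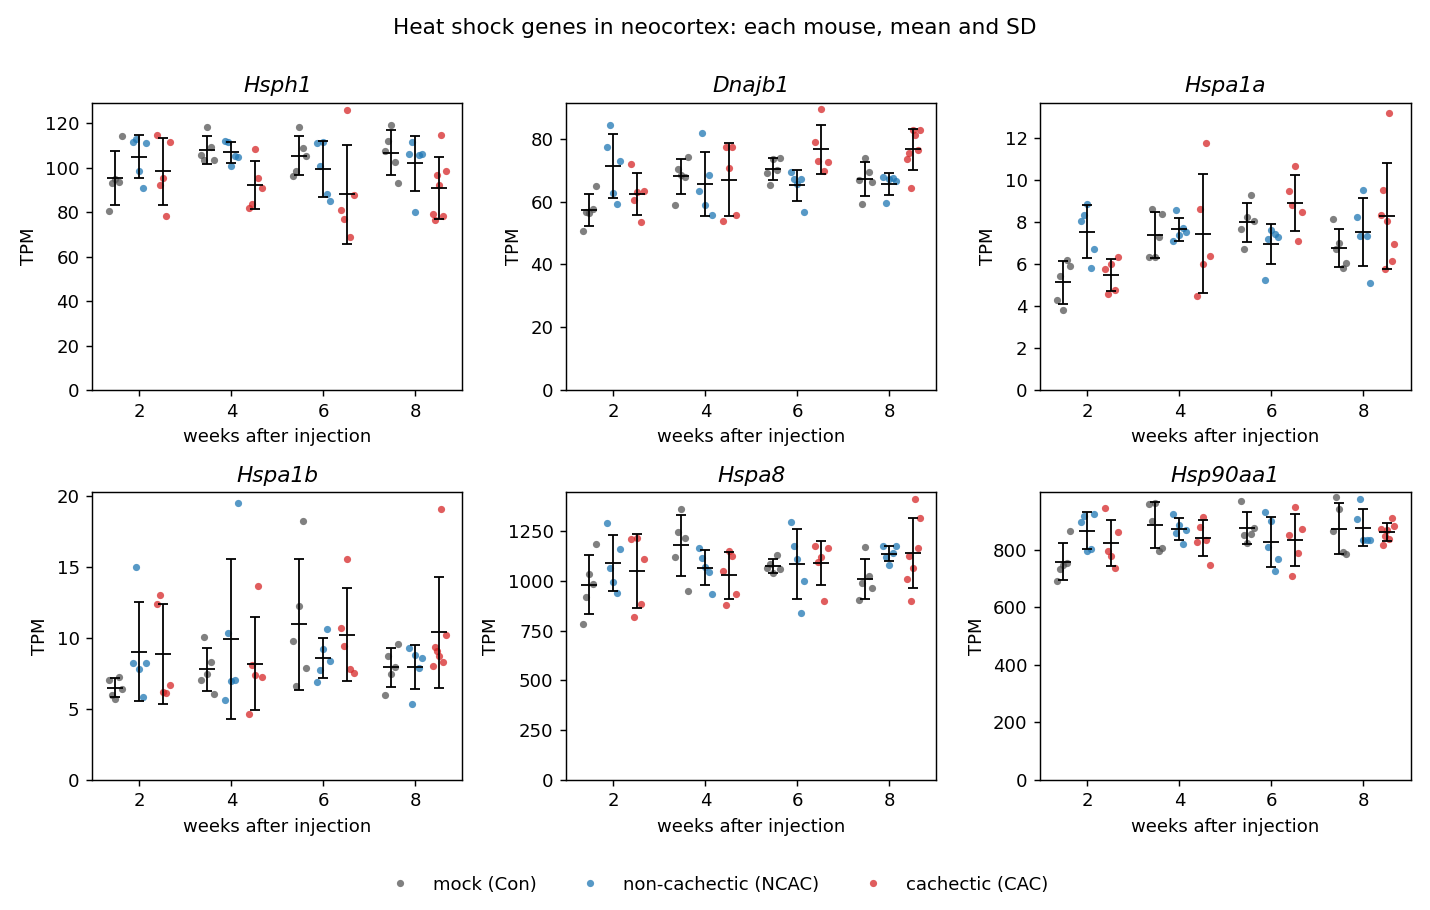
TPM of the 6 heat shock genes on linear axes by weeks after injection, 1 point per mouse, with the mean (horizontal tick) and SD (bars) of each group. Hsph1 is lowest in most CAC mice at 4 to 8 weeks but is at 126 TPM in 1 CAC mouse at 6 weeks, and Hspa1b has single mice near 19 TPM in groups whose other mice are near 8 TPM.

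The inducible HSP70 genes did not pass in CAC. Hspa1a at 8 weeks ranged from 5.83 to 8.13 TPM in mock, from 5.09 to 9.52 TPM in NCAC and from 5.76 to 13.2 TPM in CAC, and the CAC difference from mock was 0.23 ± 0.145 (adjusted p = 0.369). Hspa1b ranged from 5.94 to 9.60 TPM in mock, from 5.33 to 9.30 TPM in NCAC and from 8.03 to 19.1 TPM in CAC, with a difference of 0.31 ± 0.228 (adjusted p = 0.449). The highest value of both genes in CAC came from replicate 5, the mouse whose Cirbp was below the mock range. Without it the differences were 0.12 for Hspa1a (adjusted p = 0.649) and 0.17 for Hspa1b (adjusted p = 0.698). Hspa1a and Hspa1b share reads: 63.8% of the 31-base words of the longest Hspa1a transcript also occur in Hspa1b, so the split of reads between the copies is uncertain. The sum of both copies differed between CAC and mock at 8 weeks by 0.28 ± 0.178 (adjusted p = 0.362).

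The abundant chaperones did not pass in CAC either. Hspa8 at 8 weeks was at 1011 ± 100.3 TPM in mock (SD, n = 5), 1139 ± 39.2 TPM in NCAC (SD, n = 5) and 1142 ± 177 TPM in CAC (SD, n = 7), and the difference of CAC from mock had a 95% interval of -0.04 to 0.37. Hsp90aa1 was at 873 ± 89.1, 877 ± 64.5 and 862 ± 31.3 TPM in the same groups, and its interval for CAC against mock ran from -0.15 to 0.12. Over the 12 groups the mean of Hspa8 stayed between 982 and 1180 TPM and that of Hsp90aa1 between 758 and 885 TPM, with the lowest mean of both in mock at 2 weeks.

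**Figure D3:**
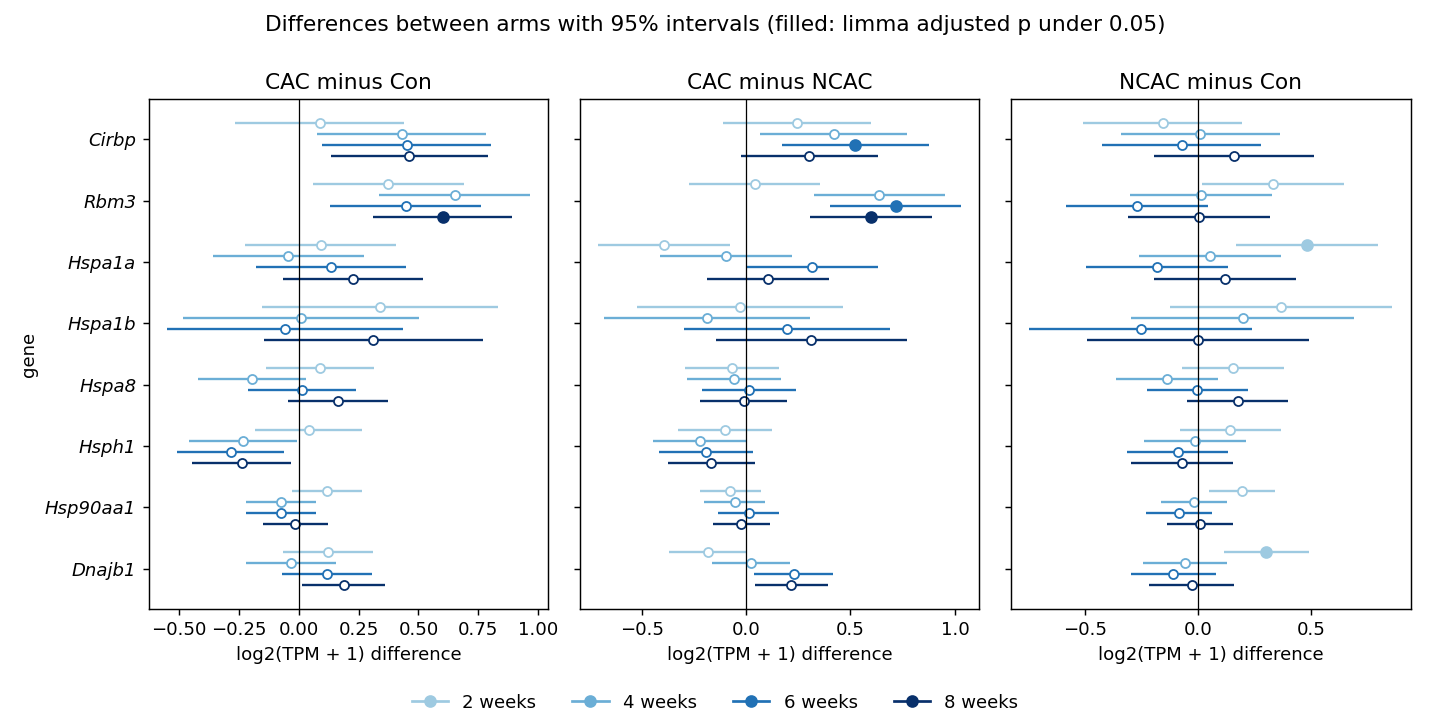
Differences in log2(TPM + 1) between arms for each gene (rows) in each week (shades of blue), with 95% intervals from the limma fit. Filled points have an adjusted p under 0.05: Rbm3 in CAC minus mock (8 weeks) and CAC minus NCAC (6 and 8 weeks), Cirbp in CAC against NCAC at 6 weeks, and Hspa1a and Dnajb1 in NCAC against mock at 2 weeks.

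The only comparison in which heat shock genes of this set passed was NCAC against mock at 2 weeks, and the calls depended on single libraries. Hspa1a was at 4.31, 5.44, 3.80, 6.22 and 5.89 TPM in mock, at 8.06, 8.33, 8.85, 5.83 and 6.70 TPM in NCAC, and at 5.77, 4.58, 6.01, 4.76 and 6.33 TPM in CAC. Of the 5 NCAC mice 4 were above every mock mouse, with a difference of 0.48 ± 0.157 (adjusted p = 0.0444). With the copies summed it was 0.46 (adjusted p = 0.116). Dnajb1 was at 50.8, 56.8, 56.5, 57.7 and 64.9 TPM in mock, at 77.3, 84.3, 62.8, 59.4 and 72.9 TPM in NCAC, and at 71.9, 60.4, 63.0, 53.5 and 63.5 TPM in CAC. Its difference between NCAC and mock was 0.30 ± 0.0935 (adjusted p = 0.0362). These were 2 calls of 8, beside 8.71% of all genes. Without mock replicate 5, the library with hypothalamus and pituitary markers, Hspa1a differed by 0.53 (adjusted p = 0.0472) and Dnajb1 by 0.35 (adjusted p = 0.0314). Leaving out each library in turn gave adjusted p from 0.0201 to 0.133 for Hspa1a and from 0.0121 to 0.157 for Dnajb1, and both missed the threshold when only these groups were fitted (0.101 and 0.123). Of all genes 129 to 1900 passed with each library left out and 9 with only these groups, beside 1262 in the full data. Hsp90aa1 differed by 0.19 ± 0.073 (adjusted p = 0.0787) and passed without mock replicate 5 (0.24, adjusted p = 0.0458), without NCAC replicate 3 (0.22, adjusted p = 0.048) or 4 (0.22, adjusted p = 0.0481), and with TMM scaling (0.20, adjusted p = 0.0276). Of all genes 803, 1653, 1900 and 2080 passed in these fits, beside 1262 in the full data. Other markers differed between these groups as well: 4 of 8 neocortical excitatory neuron markers were higher and 5 of 7 endothelial markers lower in NCAC, and the summed neocortical markers were at 1132 to 1496 TPM in NCAC and 672 to 1310 TPM in mock. Choroid plexus sums had medians of 1287 TPM in NCAC and 183 TPM in mock, and endothelial sums ranged from 158 to 239 TPM and from 233 to 274 TPM. Their part in the result was not tested. Between CAC and NCAC at 2 weeks limma called no member and 0% of all genes, and 1 member had an unadjusted p under 0.05.

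No change of a difference between weeks passed. Between 2 and 8 weeks the CAC difference from mock changed for 1.32% of all genes and between 2 and 6 weeks for 0.504%, and for 0 of the 8 genes in either case, with 0 and 1 members at an unadjusted p under 0.05. From 6 to 8 weeks, and for NCAC against mock from 2 to 8 weeks, 0% of all genes were called and 0 and 1 members had an unadjusted p under 0.05. That Rbm3 passed against mock at 8 and not at 6 weeks is therefore no shown difference between these weeks, and changes from week 4 were not tested. Among the mock mice of 4, 6 and 8 weeks, all on lane 4, limma called no member and 0% of all genes, and 0 members had an unadjusted p under 0.05.

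Within the groups, Cirbp and Rbm3 varied together from mouse to mouse. After each group's mean was subtracted, Pearson's r over the 62 libraries was 0.76 and Spearman's rho 0.76 (two-sided permutation within groups, p = 1e-05 for each, the smallest that 100000 resamples can give, adjusted 6e-05 over 12 values for 6 pairs of genes). It was 0.67 within lane 3 and 0.80 within lane 4, and 0.73 without the 2 libraries farthest from the median of Cirbp. It was 0.51 in mock, 0.83 in NCAC and 0.82 in CAC mice.

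Hsph1 ran opposite to both, a relation chosen for testing after the values were seen, and the p-values below do not account for that choice. Its r with Cirbp was -0.79 and rho -0.71, and its r with Rbm3 was -0.67 and rho -0.68 (permutation p = 1e-05 for each, adjusted 2e-05 over 8 values for the 4 pairs added). With Cirbp it was -0.72 in lane 3, -0.83 in lane 4 and -0.69 without the 2 farthest libraries, and -0.48 in mock, -0.73 in NCAC and -0.89 in CAC mice. With Rbm3 it was -0.61 in lane 3, -0.69 in lane 4 and -0.72 without the 2 farthest libraries. Of all 12821 protein-coding genes compared, Cirbp had the lowest r with Hsph1, a rank drawn from the same values and no further test. Some mice that stood apart from their group showed the arrangement at both ends, and others did so only in part. NCAC at 8 weeks replicate 3 had 132 TPM of Cirbp, 107 TPM of Rbm3 and 80.1 TPM of Hsph1. CAC at 6 weeks replicate 3 had 59.5, 74.2 and 126 TPM, and CAC at 8 weeks replicate 5 had 64.9, 83.0 and 115 TPM.

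**Figure D4:**
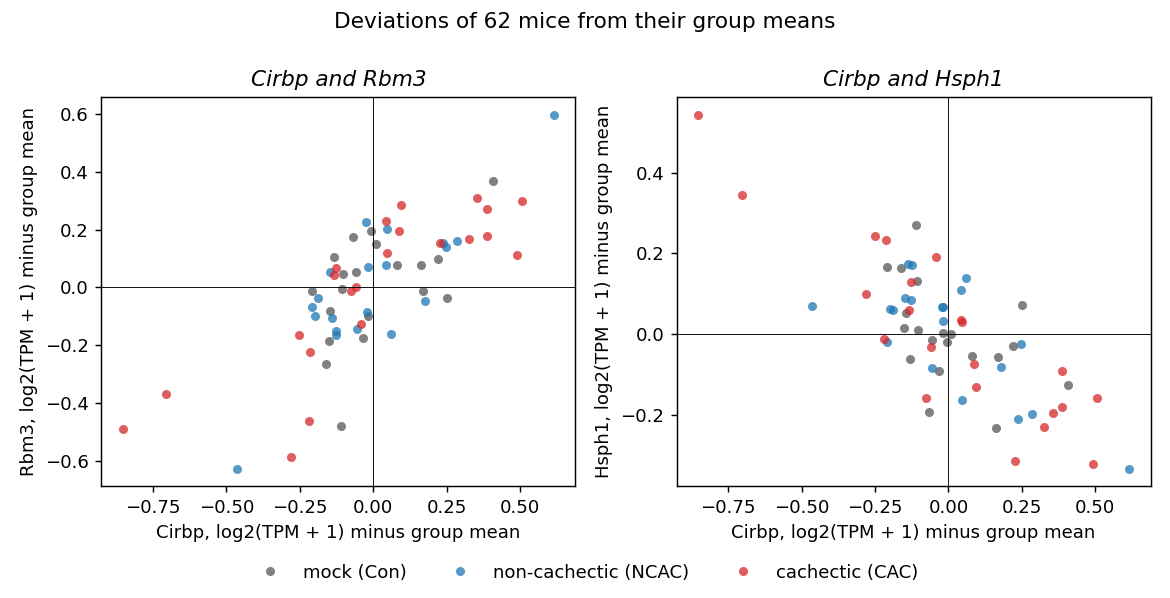
Deviation of each of 62 mice from its group mean in log2(TPM + 1), Cirbp on the horizontal axes against Rbm3 (left) and Hsph1 (right), coloured by arm. Rbm3 follows Cirbp (r = 0.76) and Hsph1 runs against it (r = -0.79), with mice of all 3 arms along the same band.

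Counted against the range of the mock mice of the same week, 11 of 17 CAC mice of 4 to 8 weeks had both Cirbp and Rbm3 above it, and 10 of these 11 also had Hsph1 below it. Among NCAC mice of the same weeks 2 of 15 had both above and 1 also had Hsph1 below. At 2 weeks 2 of 5 CAC mice and 0 of 5 NCAC mice had both above. These counts describe the mice and carry no test.

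The heat shock genes were related more loosely, with r between them from 0.04 (Hspa1a with Hsp90aa1) to 0.59 (Hsph1 with Hsp90aa1). Hspa8 with Hsph1 gave 0.58. Among heat shock genes only the pairs below were tested. Hspa8 with Hsp90aa1 gave r = 0.49 and rho = 0.50 (permutation, adjusted p = 0.000864 for each), with 0.65 in lane 3, 0.40 in lane 4 and 0.46 without the 2 farthest libraries. Hspa1a with Hspa1b gave r = 0.47 and rho = 0.39 (adjusted p = 0.000864 and 0.00408), with 0.53 in lane 3, 0.51 in lane 4 and 0.30 without the 2 farthest libraries (permutation p = 0.0128). These copies share reads, which can add to this relation or take from it. Hspa1b with Dnajb1 gave r = 0.37 and rho = 0.40 (adjusted p = 0.0219 and 0.00618), 0.67 in lane 3, 0.35 in lane 4 and 0.53 without the 2 farthest libraries, and r was 0.01 among mock and 0.63 among CAC mice. Hspa8 with Cirbp gave r = -0.35 and rho = -0.40 (adjusted p = 0.00697 and 0.00408), with -0.48 in lane 3, -0.30 in lane 4 and -0.37 without the 2 farthest libraries. Hspa1b with Fos, an immediate early gene of active or handled neurons, gave r = 0.02 and rho = 0.03 (adjusted p = 0.899 and 0.883), 0.28 in lane 3 and 0.08 in lane 4, and 0.24 without the 2 farthest libraries.

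Fkbp5, an HSP90 co-chaperone that glucocorticoids induce, had the lowest p of the chaperone lists in CAC against mock at 8 weeks, and its relation to Cirbp had a different sign in mock and CAC mice. At 8 weeks it averaged 16.2 ± 2.22 TPM in mock (SD, n = 5) and 48.9 ± 17.9 TPM in CAC (SD, n = 7) (1.44 ± 0.23, adjusted p = 2.83e-05). The pairs with Fkbp5 were also chosen after values were seen. Within groups its r with Cirbp was 0.23 and rho 0.11 (permutation, adjusted p = 0.202 and 0.454), -0.62 among mock and 0.41 among CAC mice, with -0.22 in lane 3 and 0.46 in lane 4. With Rbm3 r was 0.44 and rho 0.30 (adjusted p = 0.00558 and 0.0423), -0.45 among mock and 0.72 among CAC mice, 0.22 in lane 3 and 0.59 in lane 4, and it fell to 0.31 without the 2 farthest libraries (permutation p = 0.0568). CAC at 6 weeks replicate 3, low in Cirbp, had 29.7 TPM of Fkbp5, above every mock mouse of that week (at most 20.5 TPM).

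The genes most like 6 of the members were ranked by r over the 62 libraries after subtraction of group means, as a description with no test, and libraries share their composition. For Cirbp these were Klhdc9 (0.87), Armcx5 (0.87), Cln6 (0.85), Sat2 (0.83) and Tcta (0.82). For Rbm3 they were Ccl17 (0.80), a chemokine gene, Cirbp (0.76), Armcx5 (0.74), Dpysl4 (0.73) and Fam50a (0.73). For Hsph1 they were Caprin1 (0.87), Calr (0.87), Nudt5 (0.86), Hsp90b1 (0.86) and Smarca4 (0.86). Calr and Hsp90b1 encode chaperones of the endoplasmic reticulum. Calr was also among the genes most opposite to Cirbp (-0.81), with Hist1h2be (-0.87), Hist2h3c1 (-0.83), P4ha1 (-0.80) and Hsph1 (-0.79).

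Hsp90aa1, Hspa8 and Hspa1b had other partners, and none were ranked for Hspa1a and Dnajb1. For Hsp90aa1 the leading genes were Ube2n (0.93), Rab1a (0.89), Kifap3 (0.88), Ghitm (0.88) and Hnrnph2 (0.88), and the most opposite were the mitochondrially encoded mt-Co3 (-0.83), mt-Atp6 (-0.82), mt-Co2 (-0.80), mt-Nd4 (-0.78) and mt-Nd3 (-0.77). For Hspa8 they were Clmp (0.74), Ubash3b (0.73), Abhd6 (0.70), Evi5l (0.69) and Ina (0.67). For Hspa1b the r values were lower, with Hexim1 (0.58), Cdk2ap2 (0.55), Wdtc1 (0.55), Dda1 (0.55) and Rbm14 (0.53).

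Other chaperone genes were called in CAC against mock at 8 weeks beside 8.6% of all genes, when the median difference between CAC and mock over all 14494 genes was 0.015. Of 16 tested genes of the HSP70 family and its exchange factors, 2 rose and 1 fell, with a median of 0.033: Hspa2 (0.31 ± 0.085, adjusted p = 0.0131), the testis-enriched HSP70, and Bag5 (0.19 ± 0.0534, adjusted p = 0.0168) rose, and Bag1 (-0.15 ± 0.0481, adjusted p = 0.0416) fell. BAG proteins release nucleotide from HSP70. Of 17 genes of HSP90 and its co-chaperones 2 rose, Fkbp5 and Nudc (0.12 ± 0.0371, adjusted p = 0.0297), with a median of 0.035. None of 12 DnaJ co-chaperones passed (limma, median 0.055), the lowest p being that of Dnajb4 (0.21 ± 0.0741, adjusted p = 0.0616). None of the 8 subunits of the cytosolic chaperonin CCT passed (median 0.075), though all 8 differences were positive, led by Tcp1 (0.09 ± 0.0431, adjusted p = 0.199).

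Small heat shock proteins and chaperones of organelles gave no call in CAC against mock at 8 weeks. Of 7 small heat shock proteins none passed (median 0.024), and Cryab, an alpha-crystallin of oligodendrocytes and astrocytes, averaged 117 TPM in CAC against 151 TPM in mock (-0.41 ± 0.141, adjusted p = 0.0535). It was lower against NCAC at 8 weeks (-0.47 ± 0.141, adjusted p = 0.0346) and at 6 weeks (-0.54 ± 0.152, adjusted p = 0.0216). Markers of oligodendrocytes moved with it, and their part in the result was not tested: 5 of 7 were lower in CAC than in NCAC at 6 weeks, and their summed level was 1886 to 2102 TPM in CAC and 2141 to 2776 TPM in NCAC. Of 13 chaperones of the endoplasmic reticulum none passed (median -0.073), with Calr at -0.20 ± 0.0988 (adjusted p = 0.216), and of 8 mitochondrial chaperones none did (median 0.031), with Trap1 at -0.15 ± 0.0507 (adjusted p = 0.0599). Among 4 tested genes of a list of heat shock factors and their binding proteins Hsf4 rose (0.33 ± 0.0825, adjusted p = 0.00699). Hsf1, the master regulator of the heat shock response, averaged 31 TPM in CAC against 33.5 TPM in mock (-0.13 ± 0.0931, adjusted p = 0.452).

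**Figure D5:**
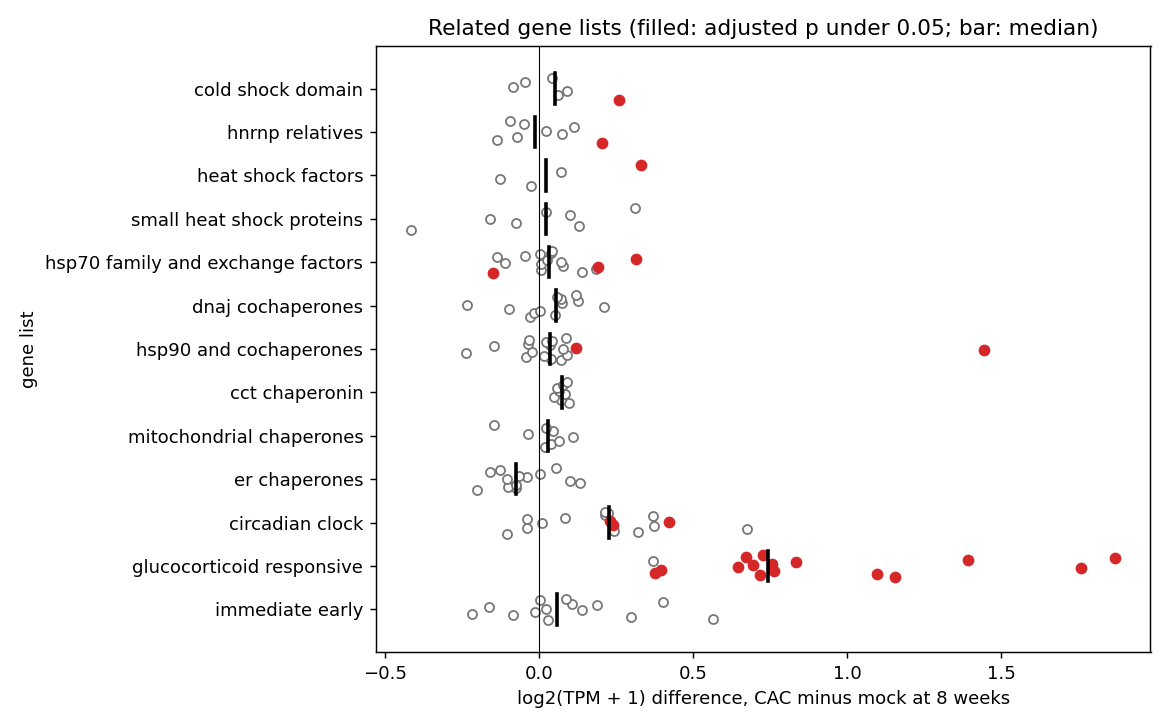
Differences in log2(TPM + 1) between CAC and mock at 8 weeks for the tested genes of 13 related lists, 1 point per gene, with the median of each list as a bar. Filled points have an adjusted p under 0.05, and 15 of 16 glucocorticoid-responsive genes are filled whereas the chaperone lists have 0 to 3 filled points each.

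Among relatives of the cold-inducible genes the calls at 8 weeks are again to be read beside 8.6% of all genes. Of 6 tested genes with a cold shock domain 1 rose at 8 weeks, Carhsp1 (0.26 ± 0.0836, adjusted p = 0.0387), with a median of 0.053, and of 8 hnRNP genes 1 rose, Hnrnpa0 (0.21 ± 0.0654, adjusted p = 0.0372), with a median of -0.012. Hormone-responsive and clock genes were counted in the same way. Of 16 glucocorticoid-responsive genes 15 rose, with a median of 0.74, among them Map3k6 (1.76 ± 0.278, adjusted p = 2.65e-05), Arrdc2 (1.16 ± 0.187, adjusted p = 3.71e-05) and Klf15 (0.76 ± 0.129, adjusted p = 7.77e-05). Of 16 clock genes 3 rose, Hlf (0.42 ± 0.0939, adjusted p = 0.00233), Cry2 (0.24 ± 0.0663, adjusted p = 0.0146) and Npas2 (0.23 ± 0.0754, adjusted p = 0.0421), with a median of 0.23. Of 14 immediate early genes none passed (median 0.059), the lowest p being that of Btg2 (0.56, adjusted p = 0.234).

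At 6 weeks against NCAC, where 9.65% of all genes passed and their median was 0.083, chaperone genes of several lists were called. Among the HSP70 family and exchange factors Bag4 (0.29 ± 0.075, adjusted p = 0.0138), Hspa13 (0.24 ± 0.0783, adjusted p = 0.0418) and Bag5 (0.17 ± 0.0577, adjusted p = 0.0472) rose and Bag1 (-0.21 ± 0.052, adjusted p = 0.00904) fell, of 16. Dnajc7 (0.21 ± 0.053, adjusted p = 0.0129) and Dnajb4 (0.26 ± 0.08, adjusted p = 0.0354) rose among 12 DnaJ co-chaperones, and Fkbp5 and Unc45a (0.23 ± 0.0597, adjusted p = 0.0134) among 17 of the HSP90 list. Hsf4 (0.30 ± 0.0891, adjusted p = 0.0276) rose among 4 of the list of heat shock factors and their binding proteins. Cct2 (0.17 ± 0.0527, adjusted p = 0.0379) rose among 8 CCT subunits, and Trap1 (-0.17 ± 0.0548, adjusted p = 0.0404) fell among 8 mitochondrial chaperones. Beyond the chaperones, 10 of 16 glucocorticoid-responsive genes (median 0.61) and 4 of 16 clock genes (median 0.27) rose, and 0 of 14 immediate early genes passed (median 0.5). Against mock at 6 weeks Fkbp5 (1.10 ± 0.249, adjusted p = 0.00924) was the 1 gene called in the 8 lists of chaperones and heat shock factors. There 6 of 16 glucocorticoid-responsive genes rose (median 0.6) and 0 of 16 clock genes passed (median 0.11).

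In CAC against NCAC at 8 weeks 6.02% of all genes passed. There Hsf4 (0.27 ± 0.0825, adjusted p = 0.0329), Hspa2 (0.30 ± 0.085, adjusted p = 0.0213) and Fkbp5 (1.38 ± 0.23, adjusted p = 8.31e-05) rose. Each was the 1 gene called higher in its list, with 4, 16 and 17 tested genes in the same order.

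In NCAC against mock at 2 weeks, where Hspa1a and Dnajb1 passed, further chaperone genes did too, beside 8.71% of all genes. Of 12 DnaJ co-chaperones 3 rose, Dnaja2 (0.22 ± 0.0634, adjusted p = 0.0287), Dnajb4 (0.25 ± 0.08, adjusted p = 0.0407) and Dnajb6 (0.16 ± 0.0541, adjusted p = 0.0494). Of 17 genes of the HSP90 list Ppp5c (0.20 ± 0.0547, adjusted p = 0.0212) and Hsp90ab1 (0.18 ± 0.0554, adjusted p = 0.0354), the constitutive cytosolic HSP90, rose, and of the HSP70 list Hspa2 (0.34 ± 0.0918, adjusted p = 0.0193) and Hspa12a (0.26 ± 0.0795, adjusted p = 0.0336). The list medians were 0.15, 0.11 and 0.11, beside 0.022 over all genes. Of 8 mitochondrial chaperones Grpel1 (0.16 ± 0.053, adjusted p = 0.0429) rose, and of 6 genes with a cold shock domain Lin28b (-0.48 ± 0.142, adjusted p = 0.031) fell. None of 8 CCT subunits and none of 13 chaperones of the endoplasmic reticulum passed (limma), with medians of 0.11 and 0.14. Calls were not confined to chaperones: of 16 clock genes 5 rose, with a median of 0.26. Of 14 immediate early genes 0 passed, though all 14 differences were positive, with a median of 0.7. In CAC against mock at the same time Hspa12a (0.28 ± 0.0795, adjusted p = 0.0306), Dnaja2 (0.22 ± 0.0634, adjusted p = 0.0352) and Ppp5c (0.19 ± 0.0547, adjusted p = 0.0377) rose, and both comparisons share the mock libraries.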

How the data were processed

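The authors deposited 1 table of TPM values with a column for each of 62 libraries. The labels' protocols describe Trizol extraction, a stranded mRNA kit, biological replicates and an Illumina NovaSeq instrument. Their text also names LLC cells and 3 weeks, which match none of these groups. The submitters' processing notes name mm10. Aligner, quantification tool and annotation: not given in the sources used here. Whether counting used strand is likewise unknown, so reads of Rbm3 and its antisense gene Rbm3os (0.551 TPM) cannot be told apart.

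TPM is no count, so limma 3.58.1 (R 4.3.3) was fitted to log2(TPM + 1) for the 14494 genes averaging at least 1 TPM. One model covered the 12 groups (50 residual degrees of freedom), and variances were moderated along their trend. The Benjamini-Hochberg adjustment ran over all genes within each of 19 comparisons, at a threshold of 0.05. Errors of differences are SE. Folds refer to log2(TPM + 1), so they understate changes of low genes. P-values measure the spread between libraries, each taken as 1 mouse. Of 131 pairs of libraries within groups none held identical values, and the lowest median chi-square per gene was 1.71, above sampling noise. The fit was tested on simulated data. Depth came from the steps of low values, of which 86.3% of 207225 were whole within 0.05. Correlations used SciPy 1.17.1 and NumPy 2.4.6, with permutation within groups. Gene positions come from GENCODE vM21 (GRCm38), the assembly that mm10 denotes.

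The 8 genes and the gene lists were chosen with earlier results of these data known. The text names all 8 genes, up to 3 genes of each list with the lowest p in CAC against mock at 8 weeks, called genes where 3 or fewer of a list were called, and the 5 genes most like Cirbp, Rbm3, Hspa1b, Hspa8 and Hsp90aa1. Hsph1, the most opposite genes and the 4 genes called in the HSP70 list at 6 weeks were added after values were seen. One gene that this rule would name is not reported here. The alternatives tried were 0.1 as pseudocount, testing without the filter, TMM scaling (trimming 30% of ratios and 5% of levels), robust moderation, a replicate block, a lane term (week 4), separate fits of the groups compared, each library left out, and the sum of Hspa1a and Hspa1b. Leaving out the 3 libraries that stood apart was chosen after seeing the data.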

Additional observations from a re-analysis of the deposited data

Results flagged for a closer look

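In 96 groups of values (8 genes in 12 groups), 9 values, from 8 mice, lay farther from the rest of their group than Dixon's test allows at the 95% level, a share of 9.38% where chance gives about 1 in 20. Mock at 6 weeks replicate 1 was high in both cold-inducible genes, with 105 TPM of Cirbp (others 68.1 to 77.8 TPM) and 99 TPM of Rbm3 (others 67.5 to 75.8 TPM). Mock at 2 weeks replicate 5, the library with hypothalamus and pituitary markers, was low in Rbm3 with 40.1 TPM (others 58.4 to 64.6 TPM). NCAC at 8 weeks replicate 3 was low in Hsph1 with 80.1 TPM (others 105 to 112 TPM), in the mouse that also had the highest Cirbp and Rbm3 of its group.

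Hspa1b was high in NCAC at 2 weeks replicate 2 with 15 TPM (others 5.81 to 8.25 TPM) and in CAC at 8 weeks replicate 5 with 19.1 TPM (others 8.03 to 10.2 TPM). Hspa1a was low in NCAC at 6 weeks replicate 1 with 5.27 TPM (others 7.19 to 7.63 TPM). Hspa8 was low in CAC at 6 weeks replicate 4 with 899 TPM (others 1096 to 1174 TPM), and Dnajb1 was low in NCAC at 8 weeks replicate 2 with 59.4 TPM (others 66.6 to 67.7 TPM).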

How the results depend on the processing

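Of 152 differences of the 8 genes, 74 were larger than their SE and were followed through the alternatives, and none of them changed sign; the other 78 have no stated direction. Of 1066 alternative values, 1017 kept their side of the threshold, 32 lost a call and 17 gained one. The calls over all genes tested moved with the alternatives as well and are given beside those of the 8 genes. Among the 8 genes, CAC against mock at 8 weeks had 1 call, 2 without the 3 libraries that stood apart, and 1 to 2 with each library left out. Over all genes these were 1247, 2020 and 723 to 1762 calls. CAC against NCAC at 6 weeks had 2 calls, 1 with no filter, 1 with TMM scaling, 1 with robust moderation (Cirbp at adjusted p = 0.0506) and 1 with only the groups compared, and 1 to 3 with each library left out. Over all genes these were 1399, 904, 689, 1378, 638 and 342 to 2506 calls. CAC against NCAC at 8 weeks had 1 call, 0 with only the groups compared, 2 without the 3 libraries, and 0 to 2 with each left out. Over all genes these were 873, 287, 1975 and 407 to 1639 calls. NCAC against mock at 2 weeks had 2 calls, 0 with no filter (adjusted p = 0.072 for Hspa1a and 0.0579 for Dnajb1), 0 with only the groups compared, 3 with TMM scaling, 3 without the 3 libraries, and 0 to 3 with each left out. Over all genes these were 1262, 780, 9, 2080, 1242 and 129 to 1900 calls. With no call in the full data, CAC against mock at 4 weeks had 0 to 1, CAC against NCAC at 4 weeks 0 to 1 and CAC against mock at 6 weeks 0 to 3 with each left out. Over all genes these ran from 1 to 760, from 0 to 1566 and from 54 to 407 calls, beside 6, 1 and 236 in the full data. The within-group r of Cirbp with Fkbp5 turned from 0.23 to -0.22 within lane 3. The cause was not tested. Single libraries were left out only in comparisons of arms within a week.

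Replicate numbers shared between arms gave no clear pairing of the mice. Of 60 pairs of libraries with the same number and week 19 correlated above 0.1 after subtraction of group means, and r ran from -0.25 to 0.28. With a replicate block no call among the 8 genes changed, and Rbm3 in CAC against mock at 8 weeks was 0.526 (adjusted p = 0.0354). TMM scaling moved the median of all genes by at most 0.087 in size (-0.087, mock at 8 against 4 weeks). With 5 to 7 mice per group, the 95% interval of Hspa1b in CAC against mock at 8 weeks ran from -0.15 to 0.77.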
